A study of Mus musculus with 6 samples.

Results

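The 10 genes described here encode the subunits of the condensins, ring-shaped complexes that fold DNA into compact mitotic chromosomes, and the 2 nuclear type II DNA topoisomerases. They were taken by name, as the rows with the symbols Smc2, Smc4, Ncapd2, Ncapd3, Ncapg, Ncapg2, Ncaph, Ncaph2, Top2a and Top2b, and they are 10 of the 24062 genes counted. The 10 genes were all among the 16904 genes that were tested. Compared with Rb1/p107 DKO retinae, 7 of the 10 were lower in Rb1/p107/Hells TKO retinae, from 2.15-fold for Smc4 to 9.28-fold for Top2a. The condensin II subunits Ncapd3 and Ncaph2 and the topoisomerase Top2b did not pass the test.

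Each condensin is built on a pair of long coiled-coil ATPases, SMC2 and SMC4, which join into a V shape. A kleisin subunit closes the ring, and a pair of HEAT-repeat subunits binds the kleisin and DNA. Condensin I carries the kleisin NCAPH with NCAPD2 and NCAPG, and it reaches chromosomes after the nuclear envelope has broken down. Condensin II carries NCAPH2 with NCAPD3 and NCAPG2, and it is nuclear throughout the cell cycle. Topoisomerase II cuts both strands of a DNA duplex, passes another duplex through the gap and reseals it, which lets condensins resolve entangled sister chromatids. The enzyme has an isoform of dividing cells, TOP2A, and an isoform that is also made by neurons and other cells that have left the cell cycle, TOP2B.

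RNA-seq libraries were made from 3 retinae of each genotype at postnatal day 21, an age at which a normal mouse retina has finished its divisions. Both genotypes carried the Chx10-Cre transgene, Rb lox/lox and p107-/- alleles in a background labelled C57BL/6, which the methods give as C57BL/6N, and TKO mice carried Hells lox/lox in addition. The Cre is expressed in a mosaic of retinal progenitor cells, so each retina also holds cells that lack p107 alone. The comparison asks which genes of chromosome condensation differ between these retinae when Hells, a chromatin remodeler, is lost beside the RB family members. The labels give 3 numbered samples for each genotype and do not say whether they are separate mice, so p-values measure the spread between these samples. In bulk retinae, fewer cells of a type and less RNA in each cell cannot be told apart.

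Libraries held between 10343907 and 14203098 counts. Hells had between 60.8 and 83.4 normalized counts in TKO and between 395 and 678 in DKO retinae. Genes that were not deleted also fell, Top2a to 10.8% and Ncaph to 17.0% of the DKO mean. The Hells level therefore does not verify the genotype of a library. A normalized count is the count of a gene divided by the scaled size of its library relative to the mean size. Rods, the main cell of the retina, were represented by all 9 of their markers. All genes of the 11 lists for cells of the eye were detected. The 9 rod markers were all higher in TKO retinae, with a summed level from 350863 to 709052 normalized counts against 119191 to 226147 in DKO retinae. Of 7 microglia markers, 5 were lower, with a summed level from 1099 to 1956 against 2546 to 3653. Of 7 lens markers, 3 were higher, with a summed level of 3010 normalized counts in TKO replicate 2, 472 to 561 in the other TKO retinae and 104 to 105 in DKO retinae. Each of the remaining 8 lists had at most 2 genes that passed in either direction. Among them, the 5 cone markers had log2 fold changes from 0.86 to 1.28, and 2 of the 5 passed. Of 5 Muller glia markers, 2 were higher and 2 were lower. The part of these cell types in the results was not tested.

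In the whole table, 9.20% of the genes tested were lower in TKO retinae with an adjusted p of at most 0.05 (edgeR), against 7 of the 10 condensin and topoisomerase II genes. The same 7 genes also met the 3 criteria of the study's methods (adjusted p up to 0.05, a log2 change of 1 or more in either direction, a mean normalized count from 10 upward), which 4.38% of the genes tested met in this direction. None of the 10 was higher, beside 7.35% of the genes tested and 1.97% by the 3 criteria. In this edgeR fit and in DESeq2, none was higher by an unadjusted p under 0.05 either. By that threshold in edgeR, 1 of the 10 was higher with the replicate number as a block, and 2 without DKO replicate 1. Over the 10 genes the log2 fold changes had a median of -1.69 and ran from -3.21 to 0.22, beside a median of -0.011 over all genes tested. In 8 of the 10 genes the highest TKO retina was below the lowest DKO retina, which was so for 20.6% of the genes tested.

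**Figure D1:**
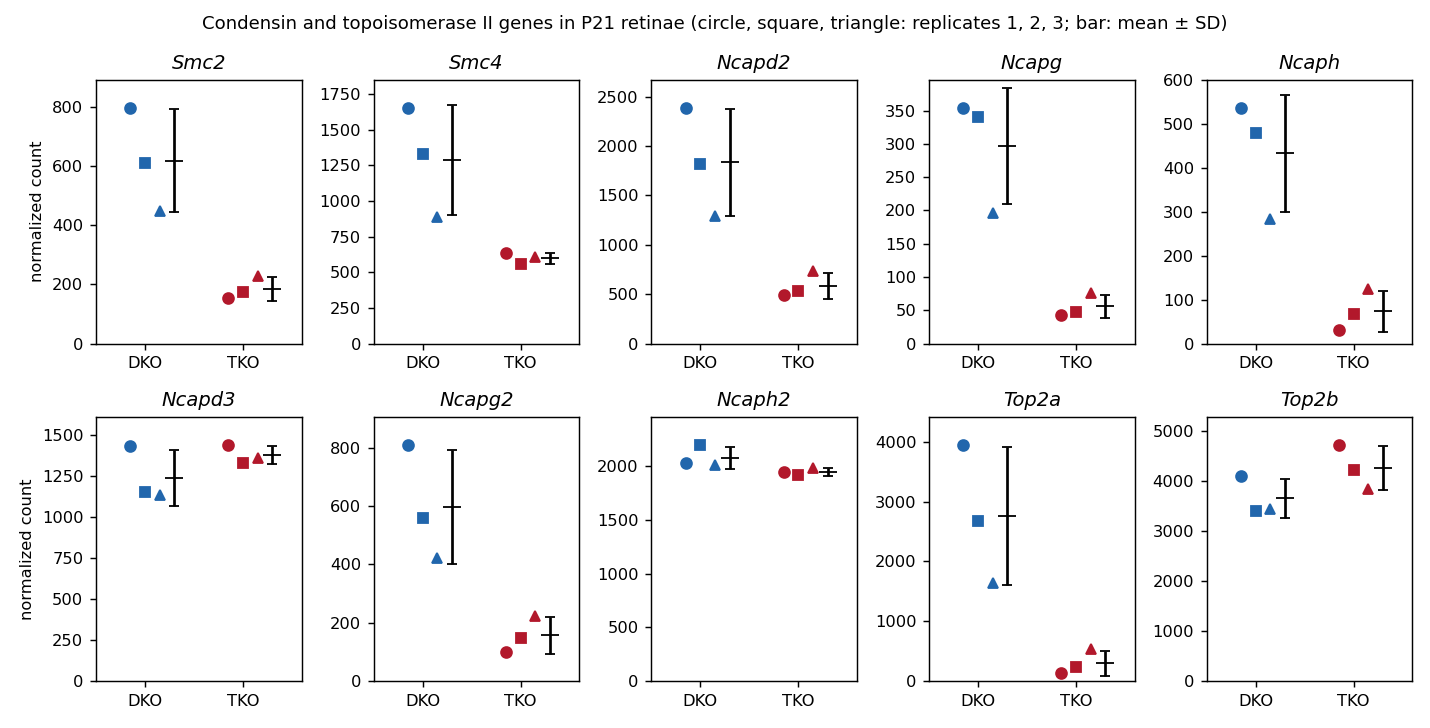
Normalized counts (y axis, from 0 and with its own scale in each panel) of the 10 genes in 3 DKO (blue) and 3 TKO (red) retinae, with circles, squares and triangles for replicates 1, 2 and 3 and black bars for the mean ± SD. The groups are apart in Smc2, Smc4, Ncapd2, Ncapg, Ncaph, Ncapg2 and Top2a, they overlap in Ncapd3 and Top2b, and in Ncaph2 they are separated by a narrow gap, from 1987 to 2012 normalized counts.

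The SMC pair that both condensins share was lower in TKO retinae, Smc2 more than Smc4. Smc2, on chromosome 4 of GRCm38 from 52439243 to 52488260 (plus strand), had 153, 174 and 229 normalized counts in TKO and 797, 610 and 449 in DKO replicates 1, 2 and 3. The groups did not overlap, and the DKO retinae lay farther apart than the TKO retinae did. The log2 fold change was -1.74 (standard error 0.230, adjusted p = 0.00680 from edgeR), so TKO retinae kept 29.9% of the DKO mean. Smc4, on chromosome 3 from 69004738 to 69034623 (plus strand), hosts the microRNAs Mir15b and Mir16-2 between its exons. It had 635, 558 and 605 normalized counts in TKO and 1652, 1327 and 886 in DKO replicates 1, 2 and 3. The TKO retinae lay close together, with an SD of 6.51% of their mean, while the SD of the DKO retinae was 29.8% of theirs. The log2 fold change of Smc4 was -1.10 (standard error 0.200, adjusted p = 0.0113 from edgeR), the smallest change among the 7 lower genes. Without TKO replicate 2 its adjusted p was 0.0553 and without DKO replicate 2 it was 0.0510 (edgeR), with log2 fold changes of -1.05 and -1.08. When DKO replicate 1 was left out, Smc4 passed the test (adjusted p = 0.0416 from edgeR) but its log2 fold change of -0.89 missed the fold criterion.

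The proteins SMC2 and SMC4 act as a pair, but the fitted falls of their mRNAs differed in size. Smc2 had 0.483, 0.460 and 0.507 counts for each count of Smc4 in DKO replicates 1, 2 and 3, and 0.240, 0.311 and 0.379 in TKO replicates 1, 2 and 3. This ratio comes from counts within a library and does not depend on the scaling of libraries. The DKO retinae lay close together, and the 3 TKO retinae were below them and apart from each other. The difference in this ratio was not tested.

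The 3 subunits that belong to condensin I alone were all lower, and the kleisin Ncaph and the HEAT-repeat subunit Ncapg fell more than the SMC pair. Ncapd2, the HEAT-repeat subunit on chromosome 6 from 125168007 to 125191701 (minus strand), had 494, 529 and 738 normalized counts in TKO and 2386, 1819 and 1297 in DKO replicates 1, 2 and 3. Its log2 fold change was -1.64 (standard error 0.232, adjusted p = 0.00700 from edgeR). Ncapg, on chromosome 5 from 45669919 to 45700546 (plus strand), had 43.6, 47.4 and 76.1 normalized counts in TKO and 354, 341 and 197 in DKO replicates 1, 2 and 3. The lowest DKO retina was replicate 3, which still stood well above each TKO retina. The log2 fold change of Ncapg was -2.42 (standard error 0.292, adjusted p = 0.00571 from edgeR), the smallest adjusted p of the 10 genes. Of its annotated exonic bases, 13.4% also lie in exons of Lcorl on the other strand, whose own log2 fold change was -0.17 (edgeR adjusted p = 0.465). Ncaph, on chromosome 2 from 127103809 to 127133954 (minus strand), had 31.0, 66.3 and 124 normalized counts in TKO and 536, 481 and 283 in DKO replicates 1, 2 and 3. TKO replicate 3 had 4.00 times the level of TKO replicate 1, a wider spread than in any other condensin gene. The log2 fold change of Ncaph was -2.56 (standard error 0.427, adjusted p = 0.00914 from edgeR).

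The bases around the start of transcription are shown for genes that moved and genes that did not, because the promoters of mitotic genes are known for CCAAT boxes, bound by NF-Y, for the CHR element, bound by MuvB complexes, and for E2F sites, through which RB family proteins act. RefSeq windows of 300 bases on GRCm38.p6, with 250 before and 50 after the start, were found for 9 of the 10 genes, all but Smc4. There were 10 windows in all since Ncapd3 has a second start. Capitals mark each match, on either strand, to an E2F motif (TTTCCCGC, TTTCGCGC, TTTGCCGC or TTTGGCGC), a CHR motif (TTTGAA or TTCGAA) or a CCAAT box (CCAAT, which reads ATTGG on the other strand). No 2 matches in these windows share a base. The windows of Ncapd2 (chr6:125191537-125191836, minus strand) and of Ncaph (chr2:127133905-127134204, minus strand) are given 5′ to 3′.
Ncapd2: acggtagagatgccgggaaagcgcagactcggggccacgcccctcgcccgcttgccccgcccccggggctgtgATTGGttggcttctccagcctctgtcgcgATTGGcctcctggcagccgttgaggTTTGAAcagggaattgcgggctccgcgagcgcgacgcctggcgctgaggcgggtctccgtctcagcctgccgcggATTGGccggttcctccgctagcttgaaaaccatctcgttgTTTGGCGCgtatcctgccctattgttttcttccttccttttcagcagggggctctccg
Ncaph: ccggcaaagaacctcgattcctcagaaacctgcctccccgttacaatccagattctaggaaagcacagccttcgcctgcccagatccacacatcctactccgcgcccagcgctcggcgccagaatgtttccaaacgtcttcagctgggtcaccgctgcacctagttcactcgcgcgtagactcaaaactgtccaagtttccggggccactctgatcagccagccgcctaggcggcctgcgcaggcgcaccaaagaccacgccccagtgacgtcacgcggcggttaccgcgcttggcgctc
The Ncapd2 window held an E2F motif, a CHR motif and 3 CCAAT boxes, and the Ncaph window held none of the 3 motifs, although both genes were lower. The window of Ncapg (chr5:45669675-45669974, plus strand) held 1 match to each motif. All 3 motifs stood together in 0.146% of the 32851 windows of the RefSeq table and in 0.216% of the 15712 windows of genes tested here. The windows of Ncapd2 and Ncapg are counted in these shares.

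Condensin II did not move as a unit. Ncapg2, its HEAT-repeat subunit on chromosome 12 from 116405402 to 116463731 (plus strand), had 98.6, 148 and 223 normalized counts in TKO and 808, 560 and 423 in DKO replicates 1, 2 and 3. Each TKO retina was below each DKO retina, and its log2 fold change was -1.93 (standard error 0.316, adjusted p = 0.00879 from edgeR), which lies between those of Ncapd2 and Ncapg of condensin I. Ncapd3, the other HEAT-repeat subunit, on chromosome 9 from 27030175 to 27095315 (plus strand), had 1435, 1329 and 1355 normalized counts in TKO and 1432, 1150 and 1130 in DKO replicates 1, 2 and 3. The groups overlapped, since DKO replicate 1 was above TKO replicates 2 and 3. Its log2 fold change was 0.15 with a 95% interval from -0.088 to 0.39 (adjusted p = 0.349 from edgeR), and with total counts as the scaling it was -0.0089. The kleisin Ncaph2, on chromosome 15 from 89355719 to 89372826 (plus strand), had 1951, 1916 and 1987 normalized counts in TKO and 2030, 2197 and 2012 in DKO replicates 1, 2 and 3. The TKO values were lower by a margin smaller than the range of the DKO values. Its log2 fold change was -0.092 with a 95% interval from -0.26 to 0.077 (adjusted p = 0.419 from edgeR), an interval that leaves out the fall of any of the 7 lower genes. Of its exonic bases, 19.7% also lie in exons of Sco2 and 12.7% in exons of Tymp, both on the other strand, and these had log2 fold changes of -0.13 and -0.71 that did not pass the test.

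Within condensin II, Ncapg2 had 0.398, 0.255 and 0.210 counts for each count of Ncaph2 in DKO replicates 1, 2 and 3 and 0.0506, 0.0775 and 0.112 in TKO replicates 1, 2 and 3. The highest TKO value was below the lowest DKO value. The kleisins of the complexes parted in the same way, with 0.264, 0.219 and 0.141 counts of Ncaph for each count of Ncaph2 in DKO and 0.0159, 0.0346 and 0.0624 in TKO replicates 1, 2 and 3. The mean log2 normalized count of the 3 condensin I subunits minus that of the 3 condensin II subunits was -0.79, -0.75 and -1.24 in DKO and -2.90, -2.61 and -2.14 in TKO replicates 1, 2 and 3. The means differed by -1.62, beside SDs of 0.27 in DKO and 0.38 in TKO retinae, a value over chosen genes that was given no test.

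The windows of Ncapg2 (chr12:116405186-116405485, plus strand) and of Ncaph2 (chr15:89355469-89355768, plus strand) are set together because the first gene was lower and the second was not.
Ncapg2: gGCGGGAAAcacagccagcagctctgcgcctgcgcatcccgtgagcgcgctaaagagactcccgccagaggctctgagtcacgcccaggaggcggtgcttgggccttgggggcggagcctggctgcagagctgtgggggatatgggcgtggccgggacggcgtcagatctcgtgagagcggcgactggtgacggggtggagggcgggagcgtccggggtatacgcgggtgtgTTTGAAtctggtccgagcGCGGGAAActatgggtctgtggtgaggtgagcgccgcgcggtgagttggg
Ncaph2: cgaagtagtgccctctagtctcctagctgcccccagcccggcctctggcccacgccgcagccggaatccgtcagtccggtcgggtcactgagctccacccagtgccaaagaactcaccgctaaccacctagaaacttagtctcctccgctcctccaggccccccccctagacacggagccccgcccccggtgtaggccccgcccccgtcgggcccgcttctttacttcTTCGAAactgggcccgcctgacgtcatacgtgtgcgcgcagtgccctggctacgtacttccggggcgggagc
Both windows held a CHR motif shortly before the start, 18 bases before it in Ncapg2 and 22 bases before it in Ncaph2. The Ncapg2 window held 2 E2F motifs, 1 of them at the first transcribed base, and the Ncaph2 window held none. An E2F motif of these letters was found in 2.26% and a CHR motif in 19.2% of all windows of the table, and in 3.46% and 13.9% of the windows of genes tested. E2F motifs were found for 3 of the 9 genes, Ncapd2, Ncapg and Ncapg2, which were all lower. The windows of Smc2, Ncaph and Top2a, which were lower too, held no E2F motif of these letters, and E2F sites of other letters were not searched for. The Smc2 window held 2 CHR motifs and 1 CCAAT box. CHR motifs were found for 7 of the 9, of which Ncapd3, with a match by its second start only, and Ncaph2 did not pass the test. A match is a run of letters and was not shown to be bound in these retinae.

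The topoisomerases II separated most. Top2a, on chromosome 11 from 98992943 to 99024189 (minus strand), had 132, 230 and 534 normalized counts in TKO and 3944, 2684 and 1646 in DKO replicates 1, 2 and 3. The highest TKO retina had less than the lowest DKO retina by a wide margin, and Top2a varied more than any other of the 10 genes within each genotype, by 4.05-fold among TKO and by 2.40-fold among DKO retinae. Its log2 fold change was -3.21 (standard error 0.496, 95% interval from -4.35 to -2.08, adjusted p = 0.00780 from edgeR), and TKO retinae kept 10.8% of the DKO mean. With each retina left out in turn its log2 fold change ran from -3.92, without TKO replicate 3, to -2.86. Top2b, on chromosome 14 from 16365179 to 16435462 (plus strand), had 4717, 4219 and 3850 normalized counts in TKO and 4113, 3408 and 3446 in DKO replicates 1, 2 and 3. The groups overlapped, because DKO replicate 1 was above TKO replicate 3. Its log2 fold change was 0.22 with a 95% interval from -0.037 to 0.48 (adjusted p = 0.208 from edgeR). Of the exonic bases of Top2b, 12.3% also lie in exons of Rarb on the other strand, which had 181 and 217 normalized counts in TKO and DKO retinae on average.

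Within a library, the balance between the isoforms shifted. Top2a had 0.959, 0.788 and 0.478 counts for each count of Top2b in DKO replicates 1, 2 and 3 and 0.0280, 0.0546 and 0.139 in TKO replicates 1, 2 and 3. The log2 ratio was -0.49 ± 0.52 in DKO and -4.07 ± 1.16 in TKO retinae (SD, n = 3 each), a difference of -3.58. By an exact two-sided permutation test over the 6 retinae p was 0.1, and 3 retinae against 3 allow no smaller p.

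The windows of Top2a (chr11:99024140-99024439, minus strand) and of Top2b (chr14:16364956-16365255, plus strand) are given for the same contrast.
Top2a: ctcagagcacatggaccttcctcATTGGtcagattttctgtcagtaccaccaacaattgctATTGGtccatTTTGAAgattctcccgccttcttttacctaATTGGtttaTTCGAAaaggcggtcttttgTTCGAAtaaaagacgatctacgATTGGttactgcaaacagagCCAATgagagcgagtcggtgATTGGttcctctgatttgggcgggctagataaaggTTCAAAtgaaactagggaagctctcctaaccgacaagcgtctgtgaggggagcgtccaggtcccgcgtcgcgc
Top2b: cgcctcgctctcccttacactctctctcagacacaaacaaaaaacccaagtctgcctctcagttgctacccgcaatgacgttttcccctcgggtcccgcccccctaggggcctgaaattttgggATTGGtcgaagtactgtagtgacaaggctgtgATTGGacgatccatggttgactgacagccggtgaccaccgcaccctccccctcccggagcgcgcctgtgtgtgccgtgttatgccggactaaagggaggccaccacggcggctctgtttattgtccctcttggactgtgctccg
The Top2a window held 6 CCAAT boxes and 4 CHR motifs, and no E2F motif of the letters searched. At least 6 CCAAT boxes were found in 0.0791% of the 32851 windows, and at least 4 CHR motifs in 0.0244%. Among the windows of genes tested these shares were 0.127% and 0.0127%, the latter 2 of 15712 windows. The limits of 6 and 4 were taken from the Top2a window itself, which is counted in these shares. The Top2b window held 2 CCAAT boxes and neither of the other motifs. A CCAAT box was found in 37.4% of all windows and at least 2 in 11.7%.

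**Figure D2:**
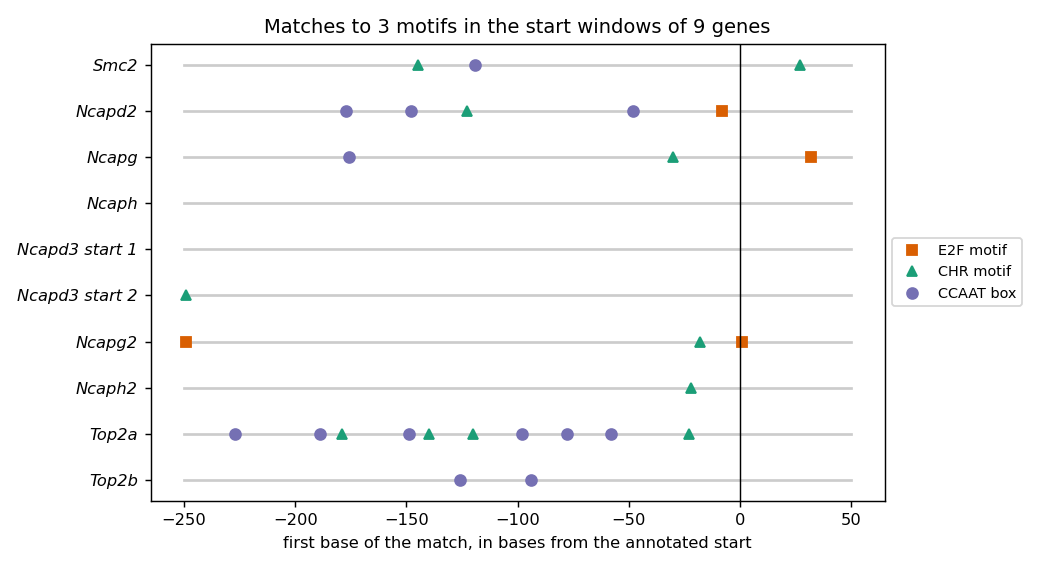
Position of each match (x axis, first base of the match in bases from the annotated start, with the window drawn in grey) to an E2F motif (square), a CHR motif (triangle) and a CCAAT box (circle) in the 10 windows of 9 genes. The Top2a window holds 6 CCAAT boxes and 4 CHR motifs, and the windows of Ncaph and of the first start of Ncapd3 hold no match.

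The levels of the 10 genes can be compared with each other per kilobase of annotated exon. In DKO retinae, Ncaph2 stood highest with 495 ± 24.3 normalized counts per kilobase (SD, n = 3 here and below), followed by Top2a with 306 ± 128, Ncapd2 with 293 ± 86.9, Top2b with 250 ± 27.1 and Smc4 with 247 ± 73.8. From Top2a to Smc4 these neighbours lay within the spread of the retinae. Ncapd3 followed at 157 ± 21.4, and Smc2, Ncaph, Ncapg2 and Ncapg had between 42.0 and 113. In TKO retinae the first places went to Ncaph2 with 465 ± 8.49, Top2b with 292 ± 29.8 and Ncapd3 with 174 ± 6.96 normalized counts per kilobase, which were the 3 genes that had not passed the test. Smc4 with 115 ± 7.50 and Ncapd2 with 93.7 ± 21.0 came next, within their spread of each other. Smc2 with 33.8 ± 7.26 and Top2a with 33.1 ± 23.2 did not differ beyond theirs, and Top2a, in the second place in DKO retinae, stood beside Smc2 here. Ncaph, Ncapg2 and Ncapg had between 7.88 and 17.1 normalized counts per kilobase. In both genotypes Ncaph2, which pairs with SMC proteins in condensin II only, was above Smc2 and Smc4 at the mRNA level. With the length of the longest coding transcript instead, all the levels rose, and in TKO retinae Top2a rose from 33.1 to 57.2 and Ncapg2 from 15.8 to 33.5 normalized counts per kilobase. Ncapg rose from 42.0 to 80.2 in DKO retinae and stayed in the last place in both genotypes. The first 6 places in DKO and the first 5 in TKO retinae kept their order, while Top2a passed Smc2 and Ncapg2 passed Ncaph in TKO retinae, and Smc2 went from place 7 to place 9 in DKO retinae.

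**Figure D3:**
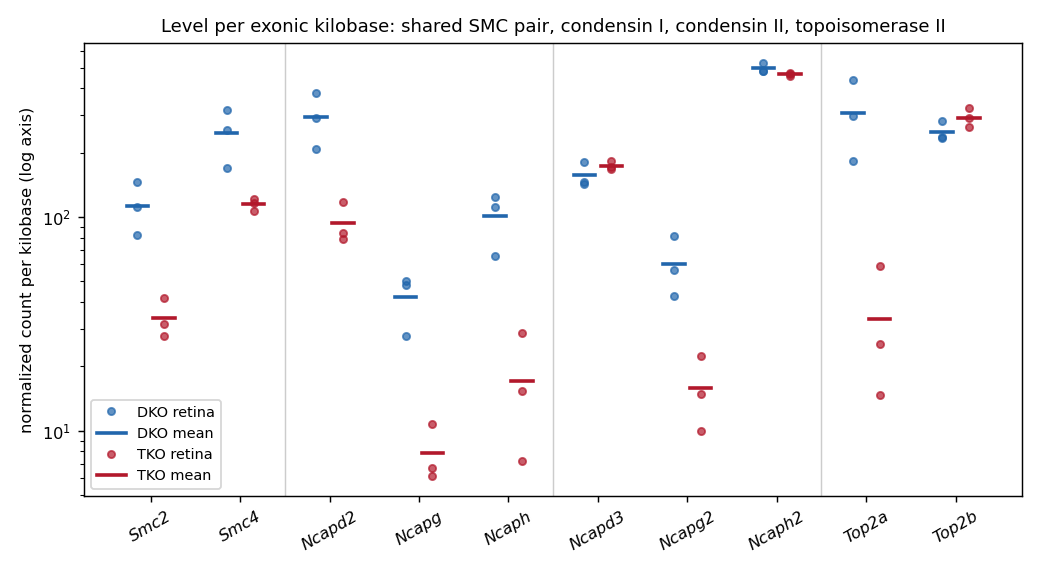
Normalized counts per kilobase of annotated exon (y axis, log scale) for the shared SMC pair, condensin I, condensin II and topoisomerase II genes (x axis, left to right), with a point for each DKO (blue) and TKO (red) retina and a line for the mean of each group. Ncaph2 is highest in both groups, at 495 and 465, and Top2a falls from 306 to 33.1 normalized counts per kilobase.

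The 7 lower genes also varied together within a genotype. Among DKO retinae, replicate 1 was highest and replicate 3 lowest for each of the 7, and the ratio of the highest to the lowest retina ran from 1.78 for Smc2 to 2.40 for Top2a. Among TKO retinae, replicate 3 was highest and replicate 1 lowest in 6 of the 7, with ratios from 1.49 for Ncapd2 to 4.05 for Top2a. Smc4 stood apart with a ratio of 1.14 and its highest TKO value in replicate 1. For Ncapd3, Ncaph2 and Top2b the ratios were at most 1.27 in either genotype.

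A list of 10 genes of dividing cells (Ccna2, Cdc20, Cenpf, Kif11, Tpx2, Ube2c, Hmmr, Rrm2, Mcm2 and Pcna) moved with them. The list was chosen with earlier results of these data known. All 10 were lower in TKO retinae, beside 9.20% of the genes tested, with a median log2 fold change of -2.59. Their summed level was 1938, 2589 and 3943 normalized counts in TKO and 11964, 10418 and 6758 in DKO replicates 1, 2 and 3, and so it placed the retinae in the same order as Smc2, Ncapd2, Ncapg, Ncaph, Ncapg2 and Top2a did. On average TKO retinae kept 29.1% of the DKO level of this sum, beside 10.8% for Top2a, 17.0% for Ncaph, 18.7% for Ncapg, 26.3% for Ncapg2, 29.9% for Smc2, 32.0% for Ncapd2 and 46.5% for Smc4. In TKO retinae the sum rested most on Pcna, Mcm2 and Ccna2, with means of 1230, 432 and 417 normalized counts. They had the smallest falls of the list, with log2 fold changes of -1.27, -1.59 and -1.32. The other genes of the list ran from -2.93 to -2.29. Of the condensin and topoisomerase II genes, only Top2a (-3.21) fell further than the list median of -2.59. The part that the number of dividing cells has in these values was not tested.

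**Figure D4:**
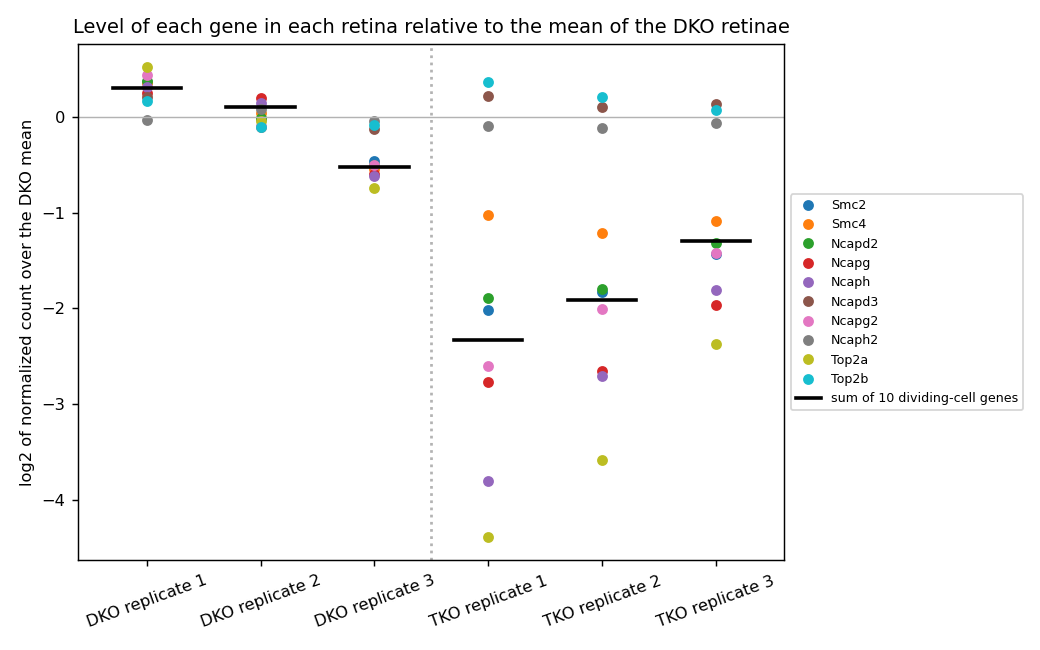
Log2 of the normalized count over the mean of the 3 DKO retinae (y axis) in each of the 6 retinae (x axis), with a coloured point for each of the 10 genes and a black bar for the summed level of 10 genes of dividing cells. Ncapd3, Ncaph2 and Top2b stay between -0.13 and 0.37 in each retina, Smc4 lies between -1.21 and -1.02 in TKO retinae, and Top2a spans -4.39 to -2.37 there.

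By its pattern over the 6 retinae, Top2a was most like Kif11, the kinesin that pushes spindle poles apart, with a Pearson correlation of 0.9993 between log2 counts scaled to library size (CPM), among 11702 other genes with a mean count of at least 100. Nhsl1, Dclk2, Gtse1 and Aspm followed, with correlations from 0.9985 to 0.9993. Of the other condensin and topoisomerase II genes, Ncapg2 took place 19 in this order, Ncaph place 59, Smc2 place 158, Ncapd2 place 199 and Ncapg place 217, with correlations from 0.986 to 0.997. Smc4 took place 1379 with a correlation of 0.906, and Ncaph2 place 2743 with 0.740. Ncapd3 and Top2b had correlations of -0.43 and -0.70. The 6 points fall into the 2 genotypes, so these values describe the libraries and were not tested.

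Of 20 genes that act with condensins or topoisomerase II in mitosis or DNA repair, 14 were lower, none was higher, and the median log2 fold change was -2.37. Among all genes tested, 9.20% were lower and 7.35% were higher. The 20 genes were chosen with earlier results of these data known, so their count is not independent of those results. The 14 genes ranged from -2.89 to -0.88 on this scale. The chromosomal passenger complex spanned this range, with -2.89 for Birc5 (survivin), -2.83 for Cdca8 (borealin), -2.74 for its kinase Aurkb, which helps to load condensin I, and -0.88 for its scaffold Incenp. Ccnb1 had -2.89, and together with Cdk1 (-2.68) it forms the kinase that phosphorylates condensins at the entry into mitosis. Plk1, which phosphorylates condensin II, had -2.29. Kif4, a chromokinesin that binds condensin I, had -1.93, and Mki67, which coats mitotic chromosomes, had -2.52. Topbp1, named for its binding to topoisomerase II, had -1.47. The 6 genes that did not pass were Mcph1 (-0.45), a restraint on condensin II, Tdp2 (-0.51), which removes trapped topoisomerase II from DNA ends, Set (-0.074), Atrx (-0.068), Csnk2a1 (0.038) and Akap8 (0.20).

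The other complexes built on SMC proteins were compared as the families most like condensin. Cohesin holds sister chromatids together and also folds interphase chromosomes, and none of its 5 core genes passed the test in edgeR or DESeq2, with 2 lower and none higher by an unadjusted p under 0.05 in edgeR. Their log2 fold changes ran from -0.27 for Rad21 to 0.18 for Stag2. In the SMC5/6 complex, which acts in DNA repair, Nsmce1 (-0.58, adjusted p = 0.0145) and Smc6 (-0.47, adjusted p = 0.0384) were lower in edgeR, and the other 4 genes had values from -0.097 for Smc5 to 0.028 for Nsmce3, listed as Ndnl2. The median over the 11 genes was -0.097. Both calls were lost when TKO replicate 2, DKO replicate 1 or DKO replicate 2 was left out. In each of those fits 2 of the 11 genes were lower by an unadjusted p under 0.05 in edgeR. Without DKO replicate 1, 1 of the 11 was higher by this threshold. Of the other topoisomerases, Top1, Top1mt, Top3a and Top3b, none passed the test in edgeR or DESeq2, and 1, Top3a, was lower by an unadjusted p under 0.05 in edgeR. Their log2 fold changes ran from -0.31 for Top3a to 0.34 for Top1mt.

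**Figure D5:**
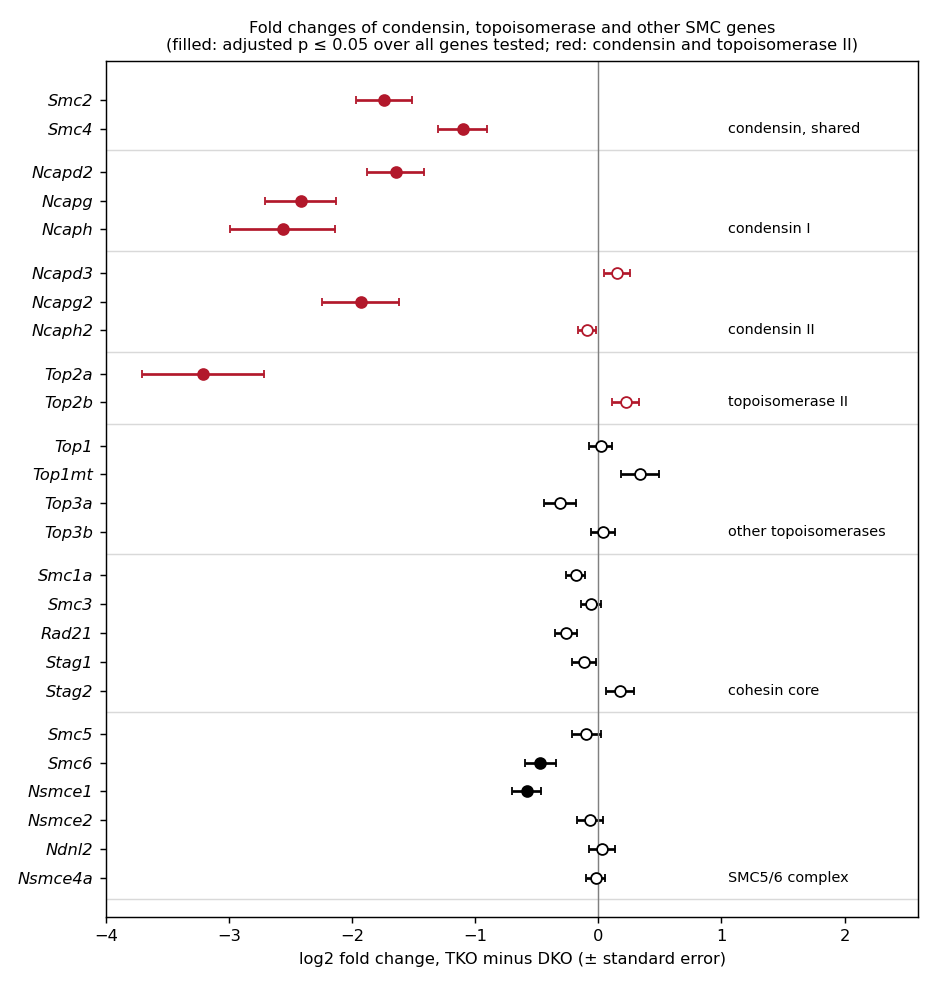
Log2 fold change of TKO over DKO retinae (x axis, bars are the standard error) for the condensin and topoisomerase II genes (red) and for other topoisomerase, cohesin and SMC5/6 genes (black), with filled symbols for an adjusted p of at most 0.05 over all genes tested. The 7 lower condensin and topoisomerase II genes lie between -3.21 and -1.10, and the genes of the other SMC complexes between -0.58 and 0.18.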

How the data were processed

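RNA-seq counts from 3 TKO and 3 DKO retinae were used. According to the methods of the study, the authors aligned read pairs to GRCm38 with STAR, allowing reads with several alignments, and counted them on genes with HTSeq, while the processing notes in the labels name TopHat2 and featureCounts. The deposited values are raw counts, with 1 column for each retina. The kit keeps strand, but the strand setting of the counting is not given in the sources used here, so genes that overlap on opposite strands are less certain.

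Genes with a sum under 10 were removed, which left 16904. The groups were compared in R 4.3.3 by the quasi-likelihood F test of edgeR 4.0.16 with TMM scaling and Benjamini-Hochberg adjustment over all genes tested, and DESeq2 1.42.0, the tool of the study, was an alternative. Standard errors were derived as |log2 fold change| over the root of F. The scripts were tested on simulated data with the same low dispersion for all genes. That simulation does not show how the test performs for genes that vary more, such as Top2a. Library totals ran from 10343907 to 14203098, and depth covers counting error only.

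The genes and lists were chosen with earlier results of these data known. All 10 members were named, and of the partner, other topoisomerase, cohesin and SMC5/6 lists the genes with the largest and smallest log2 fold change, together with some partners named for their role after their values were seen. Nsmce3 is listed as Ndnl2. Positions and exonic lengths came from GENCODE M21 on GRCm38 and start windows from RefSeq on GRCm38.p6. Other alternatives were 3 scalings, 2 filters, robust dispersions, a replicate block, each retina left out in turn and other thresholds. The length for levels per kilobase was varied after seeing the data.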

Additional observations from a re-analysis of the deposited data

How the results depend on the processing

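The 7 lower genes kept their direction under the 14 alternatives to each, and 130 of 140 values over the 10 genes kept both direction and side of the threshold. With total counts as the only scaling, where the median over all genes was -0.17 in place of -0.011, Ncapd3 turned from 0.15 to -0.0089, 4 of the 11 other SMC genes were lower in place of 2, and 2610 genes of the table were lower in place of 1556, which is 77.0% of all calls in place of 55.6%. With the replicate number as a block, 0 of the 10 genes were lower, with or without the 3 criteria, 0 of the 20 partner genes, 0 of the 11 other SMC genes and 82 genes of the table. In that edgeR fit 7 of the 10 genes, 16 of the 20 and 3 of the 11 were lower by an unadjusted p under 0.05. By the same threshold 1 of the 10 and 1 of the 20 were higher, and the share over all genes tested was not counted. The adjusted p of the 7 lower genes from this edgeR fit ran from 0.0566 to 0.0634. The median log2 fold change over the 10 genes was -1.67 with the block and -1.69 without it. Deviations of same-numbered retinae correlated at 0.067, -0.053 and -0.20 across genes. The labels do not say whether same-numbered retinae share a litter, day or batch. These correlations cannot show that they do not. With a log2 fold change of at least 2, 3 of the 10 genes met the criteria, which follows from the threshold. With each retina left out in turn, 6 to 7 of the 10 genes were lower, the 20 partner genes gave 10 to 15, the 11 other SMC genes 0 to 3 and all genes together 404 to 1973. Leaving out TKO replicate 1 gave 766 lower genes in all and 1 other SMC gene, leaving out TKO replicate 2 gave 404 and 0, leaving out DKO replicate 1 gave 499 and 0, and leaving out DKO replicate 2 gave 433 and 0. Smc4 was the gene that lost its call, as given above. The difference in log2 ratio of Top2a to Top2b ran from -4.19 to -3.03, and that between condensin I and condensin II from -1.82 to -1.45. Depth does not limit the 3 genes that did not pass, which had at least 1104 counts in each library.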
